A study of Mus musculus with 12 samples.

Results

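The spindle checkpoint and the regulators of the anaphase-promoting complex (APC/C) were followed here through 10 genes listed by name. The genes were chosen with earlier results of these data known, and are Ttk, Bub1, Bub3, Bub1b, Mad1l1, Mad2l1, Cdc20, Fzr1, Fbxo5 and Fbxo43. All 10 were present, on 1 line each, among the 25162 genes of the table, and all 10 passed the filter on low values, an average of 1 FPKM or more across the table, as did 10110 genes in all. RNA came from mouse oocytes of 2 genotypes at 3 stages named NGO, GO and FGO, names commonly used for non-growing, for growing and for fully grown oocytes. The control, WT in the labels, is headed Rnaseh1 fl/fl and so carries the floxed gene. The KO is headed Rnaseh1 oo-/-, a deletion in the oocyte of the gene for RNase H1, which degrades RNA in RNA-DNA hybrids. The sources used here do not give the Cre driver, the strain or the age of the animals. In the labels each genotype has 2 samples at each stage, 12 in all, and a sample is 10 oocytes lysed with 100 pg of ERCC spike-in RNA.

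The table gives 1 column per genotype and stage, 6 in all, as FPKM (fragments mapped to a gene, divided by transcript length and by sequencing depth), which the authors scaled by the spike-in. Whether a column is a mean, a pool or a single sample is not stated, and its depth is unknown. The differences have no replicate check and carry no SD, interval or p-value. A gene is called higher or lower where its log2(FPKM + 1) in 2 columns differs by 1 or more. This is 2-fold in FPKM + 1 and slightly over 2-fold in FPKM itself. "Rescaled" values were first divided by a factor per column, its median ratio to the geometric mean of the columns, which takes out what most genes share. The WT columns NGO, GO and FGO had factors of 0.514, 1.29 and 1.31, and the KO columns had 0.453, 1.22 and 2.26. More RNA per oocyte and a different mix of oocytes cannot be told apart in such samples, and technical differences between the columns were not tested. Rnaseh1, the deleted gene, was lower in KO at each stage, at 10.8%, 11.2% and 27.6% of the WT FPKM in NGO, GO and FGO. After rescaling, the KO to WT ratios of Rnaseh1 were 0.123, 0.118 and 0.160. All 12 oocyte markers, among them Zp3 and Gdf9, were at 1 FPKM or more in every column, and their FPKM summed to between 6125 and 18445. The 14 granulosa cell markers summed to between 2.96 and 79.1 FPKM, highest in KO FGO, where 8 of them reached 1 FPKM against 5 in WT FGO. The highest of them in KO FGO were Esr2 (37.3 FPKM, 21.3 in WT FGO), Cyp19a1 (10.4 and 6.16), Inha (9.32 and 1.17) and Gja1 (6.96 and 0.965). Amh was at 0.282 and 0.0206 FPKM in these columns, and Foxl2 was listed at 0 in KO FGO and stood at 0.0130 in WT FGO. For the 6 granulosa markers past the filter, the median log2 KO minus WT difference at FGO was 0.77, against 0.72 over all genes. The filter's mean includes the KO FGO column, and some markers, such as Inha and Gja1, passed through their values there. The median and calls of these 6 therefore cannot show whether granulosa RNA differed between the genotypes. After rescaling the medians were 0.14 and 0.02, and 2 of the 6 were called higher on either scale. Of all genes 25.8% were called higher as deposited, and 2.62% were called in either direction after rescaling. The 8 markers of theca and stroma and the 8 of blood, immune and endothelial cells summed to at most 5.56 and 19.0 FPKM. The part of these cells in the results was not tested.

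The spindle checkpoint holds back anaphase until every chromosome is attached to the spindle. The kinase TTK (Mps1) and the BUB1-BUB3 pair act at unattached kinetochores, the MAD1 protein brings MAD2 there, and MAD2, BUBR1 (from Bub1b) and BUB3 bind CDC20, an activator of the ubiquitin ligase APC/C, into an inhibitory complex. FZR1 (Cdh1) is the other activator, and in oocytes it is known to help hold prophase arrest by keeping cyclin B1 low. EMI1 (from Fbxo5) and EMI2 (from Fbxo43) are paralogous APC/C inhibitors, and EMI2 holds the ovulated egg in metaphase of the second meiotic division.

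Promoter sequences are shown for 4 members, which include those with the largest and the smallest change over growth in the control. From NGO to FGO the WT FPKM was 9.60-fold higher for Bub1b, 5.21-fold for Ttk, 5.11-fold for Cdc20 and 1.62-fold for Fzr1. Each window runs from 250 bases before to 50 bases after a RefSeq start on GRCm38.p6 and is written 5′ to 3′ on the gene's strand. For Bub1b and Ttk this start is not the first base of the gene span given below. Distances are counted from the start used for the window. Capitals mark 3 motifs searched on both strands, namely TTTGAA (the CHR element of cell cycle promoters), CCAAT (the CCAAT box) and CACGTG (the E-box), which do not overlap in these windows. The windows lie at chr2:118597961-118598260, plus strand (Bub1b), chr9:83834439-83834738, plus strand (Ttk), chr4:118437294-118437593, minus strand (Cdc20) and chr10:81378321-81378620, minus strand (Fzr1).
Bub1b: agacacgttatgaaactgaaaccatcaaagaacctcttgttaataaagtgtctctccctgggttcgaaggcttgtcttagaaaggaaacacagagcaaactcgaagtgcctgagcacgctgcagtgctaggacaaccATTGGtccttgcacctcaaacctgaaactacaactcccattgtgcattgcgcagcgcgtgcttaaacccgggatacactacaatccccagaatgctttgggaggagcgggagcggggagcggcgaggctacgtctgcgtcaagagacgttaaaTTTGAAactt
Ttk: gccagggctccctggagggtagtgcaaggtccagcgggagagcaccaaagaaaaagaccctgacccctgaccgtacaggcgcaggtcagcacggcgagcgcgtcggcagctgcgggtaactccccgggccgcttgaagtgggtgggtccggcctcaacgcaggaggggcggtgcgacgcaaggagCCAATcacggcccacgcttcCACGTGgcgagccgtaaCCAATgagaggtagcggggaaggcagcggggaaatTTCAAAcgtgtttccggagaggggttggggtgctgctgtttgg
Cdc20: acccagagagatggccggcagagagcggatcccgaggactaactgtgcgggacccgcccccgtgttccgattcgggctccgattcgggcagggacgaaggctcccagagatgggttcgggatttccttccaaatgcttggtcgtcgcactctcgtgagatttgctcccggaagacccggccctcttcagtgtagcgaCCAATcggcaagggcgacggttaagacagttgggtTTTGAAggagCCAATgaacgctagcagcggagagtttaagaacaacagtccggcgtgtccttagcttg
Fzr1: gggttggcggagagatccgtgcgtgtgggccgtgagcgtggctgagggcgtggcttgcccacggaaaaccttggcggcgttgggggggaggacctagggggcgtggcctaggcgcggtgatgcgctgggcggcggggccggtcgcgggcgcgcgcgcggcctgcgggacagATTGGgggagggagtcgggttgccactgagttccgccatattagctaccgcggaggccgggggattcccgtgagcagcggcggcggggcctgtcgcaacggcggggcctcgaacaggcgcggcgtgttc

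In Cdc20 the TTTGAA match began 18 bases before the start, between CCAAT matches that began at 53 and 8 bases before it. In Ttk the match was on the opposite strand at base 8 after the start, with CCAAT at 65 and 28 bases and the E-box at 45 bases before it. In Bub1b it lay at base 41 after the start, and CCAAT was on the opposite strand at 113 bases before it. The Fzr1 window held no TTTGAA and 1 CCAAT match, on the opposite strand, and was 73.3% G and C against a median of 52.7% over all 32851 promoters of the RefSeq table. The table held 11 windows for 9 members, since Bub3 and Mad1l1 have 2 starts each and Fbxo43 has no window. The Mad2l1 window held none of the motifs. TTTGAA was in 6 of the 11 windows (those of Bub1b, Bub3, Ttk, Cdc20 and Fbxo5), against 17.9% of all promoters in the table. CCAAT was in 8 of 11, against 37.4% of all, and CACGTG in 2 of 11, against 7.15%. The windows of Bub3 overlap each other and hold the same matches. A match is a run of letters and was not tested as a binding site. Whether the motifs go with the change over growth was not tested either.

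Gene positions are RefSeq's on GRCm38.p6. The order of the members was alike only in part between the columns, on the per-length FPKM scale. Bub1b was the most abundant from GO on, Fbxo5 ranked 2 or 3 in every column, and Bub3 was last in all 6. Fzr1 was the most abundant member at NGO in both genotypes and ranked 4 at FGO. From NGO to FGO Mad1l1 went from rank 5 to 9 in WT and from 5 to 8 in KO. Fbxo43 went from 9 to 5 and from 8 to 6, and Ttk from 8 to 7 and from 7 to 5. The spread between samples is unknown, so neighbours in this order cannot be said to differ. As a whole, the 10 genes summed to 195, 569 and 870 FPKM in WT at NGO, GO and FGO and to 175, 579 and 1499 FPKM in KO. The 6 checkpoint genes made up 45.9%, 50.2% and 56.1% of that sum in WT and 45.6%, 49.4% and 54.3% in KO. The share of Cdc20 and Fzr1 together was 32.7%, 25.9% and 20.7% in WT and 34.5%, 28.2% and 23.8% in KO.

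**Figure D1:**
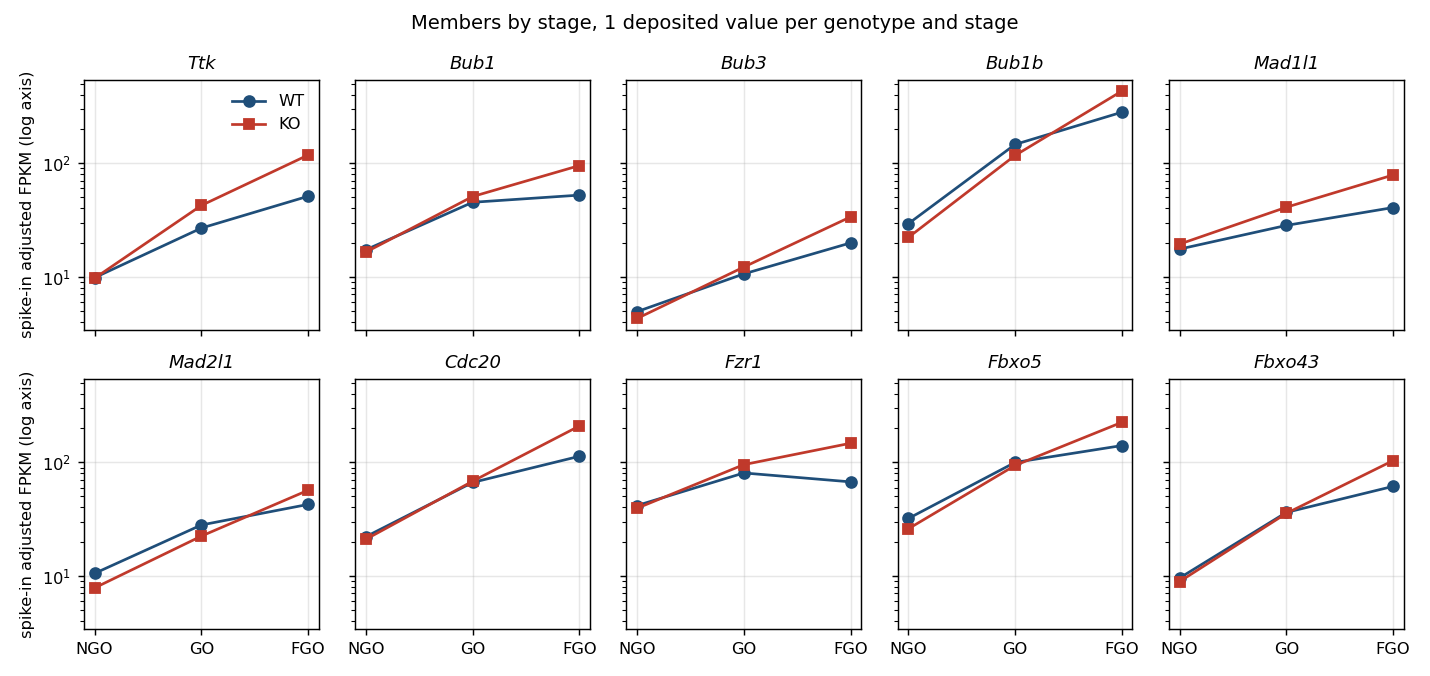
Spike-in adjusted FPKM (log axis) of each member at NGO, GO and FGO, with WT as blue circles and KO as red squares, 1 deposited value per point. Every member has its highest value in KO FGO, and Fzr1 is the member whose WT value is lower at FGO (67.3) than at GO (80.6).

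Ttk (chr9:83834651-83872390), the kinase at the head of the checkpoint, was at 9.81 FPKM in WT NGO, 26.8 in WT GO and 51.2 in WT FGO. In KO it was at 9.70, 42.5 and 118 FPKM. The genotypes were thus close at NGO and KO was above WT at the later stages, 1.58-fold at GO and 2.31-fold at FGO. Bub1 (chr2:127800197-127831859), a kinase that docks the checkpoint proteins at kinetochores, was at 17.3, 45.3 and 52.4 FPKM in WT and at 16.5, 50.9 and 95.3 in KO. Its WT value was 1.16-fold higher at FGO than at GO, while the KO value was 1.87-fold higher at FGO than at GO. Bub3 (chr7:131560367-131571895), the adaptor that binds both BUB1 and BUBR1, was at 4.93, 10.6 and 19.9 FPKM in WT and at 4.29, 12.2 and 33.7 in KO.

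Bub1b (chr2:118598202-118641592), whose product BUBR1 is the part of the inhibitory complex that blocks CDC20, was at 29.3, 146 and 281 FPKM in WT. In KO it was at 22.2, 117 and 432 FPKM, below WT at NGO and GO and above it at FGO. Mad1l1 (chr5:140008689-140321608), whose product anchors MAD2 at kinetochores, was at 17.5, 28.3 and 40.7 FPKM in WT and at 19.4, 40.9 and 78.7 in KO. It was the only member with a higher KO than WT value at all 3 stages as deposited. Mad2l1 (chr6:66535221-66541107), the MAD2 gene, was at 10.5, 28.0 and 42.6 FPKM in WT and at 7.83, 22.4 and 56.7 in KO. KO was at 74.5%, 79.8% and 133% of WT, the lowest percentage among the members at each of the stages.

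Cdc20 (chr4:118432901-118437343), the activator that the checkpoint restrains, was at 22.1, 66.5 and 113 FPKM in WT and at 21.0, 68.1 and 209 in KO. KO was at 94.8% and 102% of WT at NGO and GO and at 185% at FGO. Fzr1 (chr10:81366879-81378370), the prophase activator, was at 41.6, 80.6 and 67.3 FPKM in WT. In KO it was at 39.4, 95.4 and 147 FPKM, so that the WT value was lower at FGO than at GO and the KO value higher. Exons of Cdc20 overlap those of Elovl1 on the other strand by up to 53 bases, and those of Mad1l1 overlap Gm16121 by 37 and those of Fzr1 overlap Mfsd12 by 4. Counting by strand is not stated, so reads of such stretches may come from either gene. Fbxo5 (chr10:5799158-5805465), the EMI1 gene, was at 32.0, 99.8 and 140 FPKM in WT and at 26.0, 93.9 and 225 in KO. Fbxo43 (chr15:36150060-36169940), the EMI2 gene, was at 9.57, 36.2 and 61.4 FPKM in WT and at 8.90, 35.5 and 104 in KO. Both inhibitors had lower KO than WT values at NGO and GO and higher ones at FGO.

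The first comparison asks how the members differed between KO and WT at each stage. At NGO none of the 10 was called, where 0.0297% of all genes were called higher and 0.326% lower. Their log2 differences lay between -0.39 (Bub1b) and 0.14 (Mad1l1), with a median of -0.09 against -0.11 over all genes. At GO none was called either, against 0.95% of all genes higher and 2.03% lower. The differences ran from -0.32 (Bub1b) to 0.64 (Ttk), with a median of 0.10 against -0.09 over all genes. Ttk lay at percentile 94.9 of all genes and Mad1l1, at 0.52, at percentile 91.5, while Mad2l1, at -0.31, lay at percentile 30.4. These 2 highest members were the ones above the 90th percentile of all genes.

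At FGO all 10 members had a higher value in KO, and 2 were called, Ttk (1.19) and Fzr1 (1.12). Of all genes 25.8% were called higher and 0.158% lower in that comparison, so the members' count was near the background. Their median was 0.80 against 0.72 over all genes. Mad1l1 (0.94), Cdc20 (0.88), Bub1 (0.85), Fbxo43 (0.74), Bub3 (0.73), Fbxo5 (0.68), Bub1b (0.62) and Mad2l1 (0.41) were under 2-fold. Only 1 column stands for each side. Of the granulosa markers, Esr2, Cyp19a1, Inha and Gja1 were also highest in the KO FGO column, but they were named above for their values there. Amh and Foxl2 were not highest there. The median of all genes was higher in that column too, and the part of granulosa cells was not tested.

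After rescaling, 0 of the 10 members were called at any stage, where 0.485%, 2.32% and 2.62% of all genes were called in either direction at NGO, GO and FGO. Their rescaled medians were 0.09, 0.17 and 0.02. Ttk was at 0.16, 0.71 and 0.41, Mad1l1 at 0.32, 0.59 and 0.16 and Fzr1 at 0.10, 0.32 and 0.33. Bub1 and Cdc20 also kept positive values, at most 0.24. At the other end Mad2l1 was at -0.23, -0.24 and -0.36, Bub1b at -0.22, -0.24 and -0.17 and Fbxo5 at -0.12, -0.01 and -0.11. The rescaled sign was thus the same at the 3 stages for 8 members and mixed for Bub3 (-0.02, 0.25 and -0.03) and Fbxo43 (0.07, 0.05 and -0.04). The share of all genes that keep 1 sign was not counted, so the 8 cannot be set against it. With equal column totals in place of the median ratio, Fbxo5 was at -0.05, 0.02 and 0.02, Bub3 and Fbxo43 were above 0 at each stage, and the other 7 members had the signs just given.

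**Figure D2:**
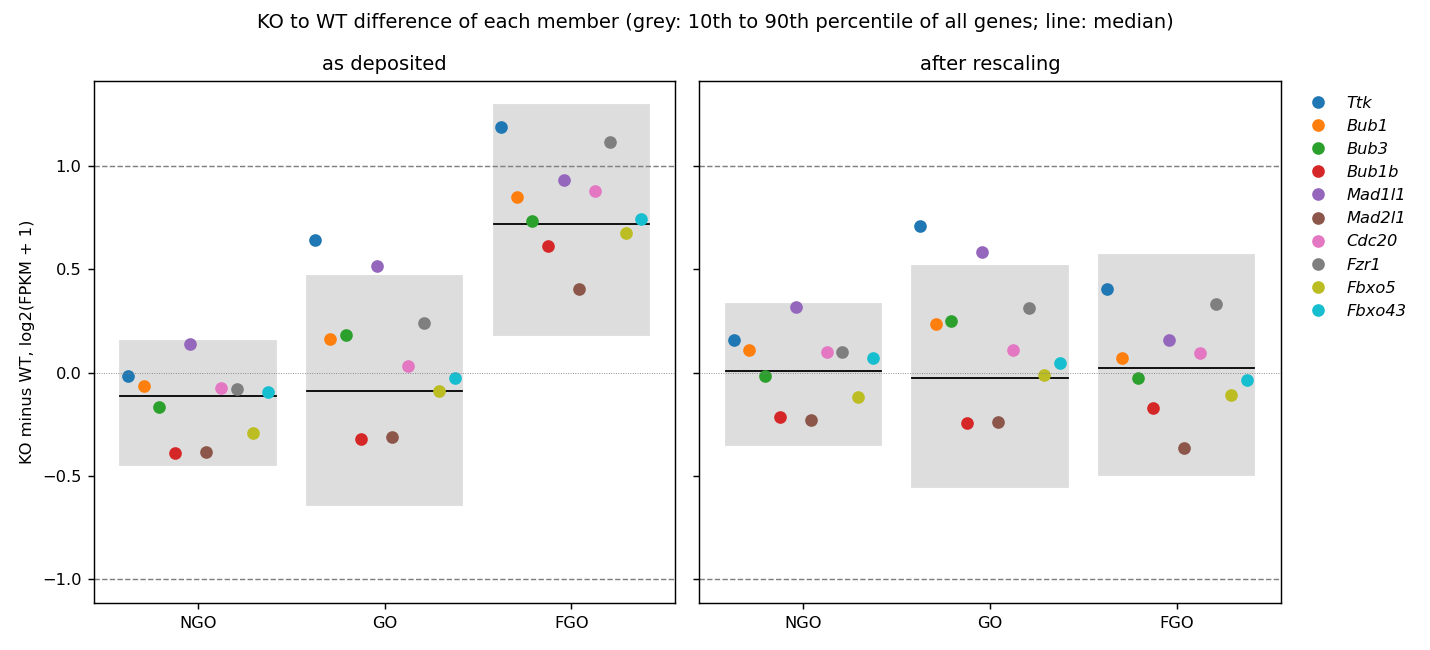
KO minus WT difference on log2(FPKM + 1) for each member at NGO, GO and FGO, as deposited (left) and rescaled (right). Grey boxes span the 10th to 90th percentile of all 10110 genes, black lines are their medians and dashed lines mark 2-fold. Ttk and Mad1l1 lie above the box at GO, and at FGO as deposited the whole box is shifted up, with Ttk and Fzr1 past 2-fold.

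The second comparison follows the members over oocyte growth. From NGO to GO every member was higher in both genotypes. In WT 7 were called higher and 0 lower, against 54.8% and 0.129% of all genes, and in KO 10 were called higher and 0 lower, against 57.6% and 0.089%. Bub1b had the largest step, at 2.28 in WT and 2.35 in KO. Bub3 (0.97), Fzr1 (0.94) and Mad1l1 (0.66) were the 3 not called in WT, although the plain FPKM ratio of Bub3 was 2.15. In KO Bub3 was at 1.32, Fzr1 at 1.25 and Mad1l1 at 1.04. The members' median step was 1.35 in WT and 1.61 in KO, and that of all genes 1.06 and 1.10.

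From GO to FGO the genotypes differed in how many members were called, as did all genes. In WT 0 of 10 were called in either direction, against 6.5% of all genes higher and 9.22% lower. In KO 7 were called higher and 0 lower, against 39% and 0.514% of all genes. The WT steps ran from -0.26 (Fzr1) to 0.94 (Bub1b), with Ttk at 0.91, Bub3 at 0.85, Cdc20 at 0.76 and Fbxo43 at 0.75. Of the WT values 9 of 10 were above the all-gene median of 0.08. In KO Bub1b was at 1.87, Cdc20 at 1.60, Fbxo43 at 1.52, Ttk at 1.45, Bub3 at 1.40, Mad2l1 at 1.30 and Fbxo5 at 1.25. Mad1l1 (0.93), Bub1 (0.89) and Fzr1 (0.62) were under 2-fold, and the all-gene median was 0.84. The difference between the steps of the genotypes was not tested, since each rests on 2 columns. The GO column enters both steps of a genotype, and the KO FGO column enters both the KO step and the KO to WT difference at FGO, so these values are not independent.

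With the common shift taken out, no member was called in either step. All genes called in either direction after rescaling were 9.34% in WT and 7.96% in KO from NGO to GO, and 14.1% and 10.1% from GO to FGO. Bub1b came nearest to 2-fold, at 0.98 and 0.95 from NGO to GO and at 0.92 and 0.99 from GO to FGO in WT and KO. Its rescaled FGO value was 3.77-fold the NGO value in WT and 3.90-fold in KO. Fbxo43 was at 2.52-fold and 2.33-fold, Ttk at 2.05-fold and 2.44-fold, and Cdc20 at 2.01-fold and 2.0-fold. The largest gap between the genotypes was that of Ttk from NGO to GO, at 0.12 in WT and 0.67 in KO. In the next step Ttk was at 0.88 in WT and 0.58 in KO. Mad1l1 likewise was at -0.61 and -0.35 and then at 0.49 and 0.06, the last of which was -0.09 with equal column totals. Fzr1 had negative rescaled steps throughout, at -0.37 and -0.16 from NGO to GO and at -0.27 and -0.26 from GO to FGO. The lower WT and the higher KO value at FGO as deposited thus gave steps of 1 sign and like size once rescaled, as they did with equal column totals (-0.51 and -0.41).

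**Figure D3:**
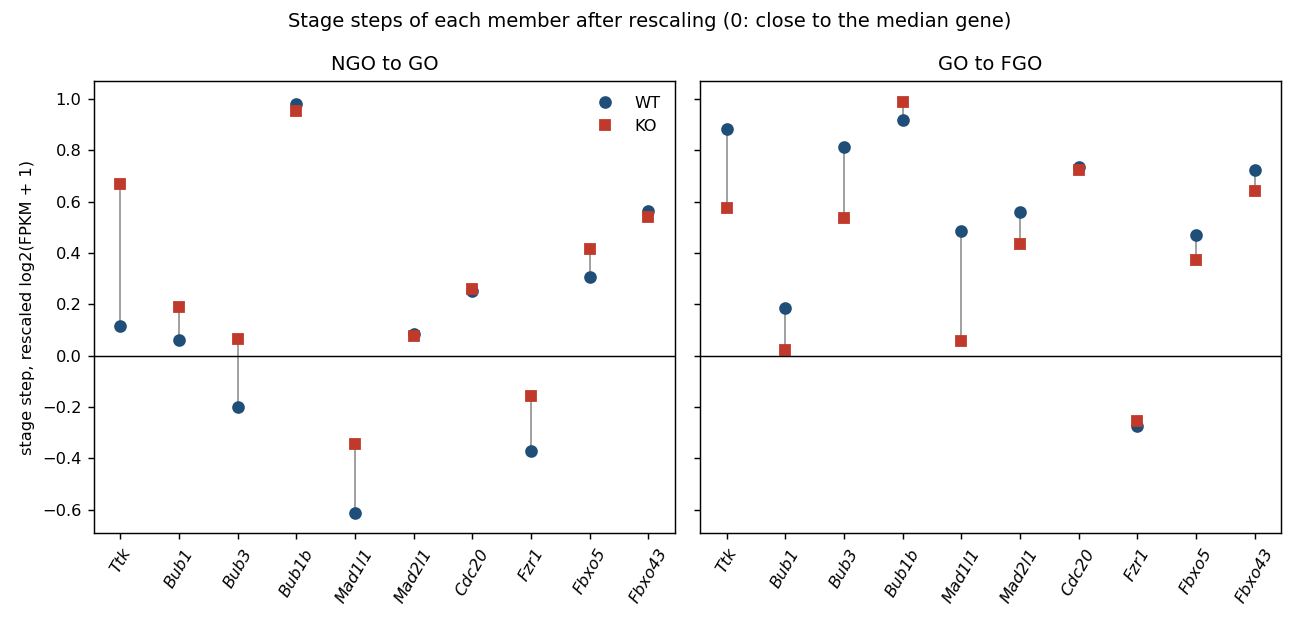
Rescaled log2(FPKM + 1) step of each member from NGO to GO (left) and from GO to FGO (right), in WT (blue circles) and KO (red squares), where 0 is close to the median gene. Bub1b is the highest in both panels, Fzr1 is below 0 in all 4 values, and Ttk and Mad1l1 show the widest gaps between genotypes.

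A spike-in factor applied to a whole column cancels in ratios of members within that column. Whether the authors used a single factor per column is not given, since neither the formula nor the make-up of a column is stated. The 8 pairs were chosen by role after the levels had been seen. The Cdc20 to Fzr1 ratio, which sets the 2 activators side by side, was 0.532, 0.825 and 1.68 in WT and 0.532, 0.714 and 1.42 in KO at NGO, GO and FGO. Fzr1 was thus above Cdc20 up to GO and below it at FGO in both genotypes. The Fbxo5 to Fbxo43 ratio of the inhibitors was 3.34, 2.76 and 2.29 in WT and 2.92, 2.64 and 2.17 in KO, so EMI1 RNA exceeded EMI2 RNA in every column by a margin that was smaller at the later stages. The Bub1b to Cdc20 ratio was 1.32, 2.2 and 2.49 in WT and 1.06, 1.72 and 2.07 in KO.

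The Mad2l1 to Mad1l1 ratio differed most between genotypes. It was 0.60, 0.990 and 1.05 in WT and 0.404, 0.547 and 0.720 in KO, lower in KO at each stage. The Mad2l1 to Cdc20 ratio was 0.475, 0.422 and 0.377 in WT and 0.373, 0.329 and 0.272 in KO, also lower in KO at each stage. Bub1b to Mad2l1 ratios were close at NGO (2.79 in WT and 2.84 in KO) and GO (5.22 and 5.23) and stood at 6.61 and 7.61 at FGO. The Bub1 to Ttk ratio was 1.76, 1.69 and 1.02 in WT and 1.70, 1.20 and 0.808 in KO, so that Ttk exceeded Bub1 in the KO FGO column alone. The Bub1b to Bub3 ratio was 5.95, 13.8 and 14.2 in WT and 5.17, 9.62 and 12.8 in KO.

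**Figure D4:**
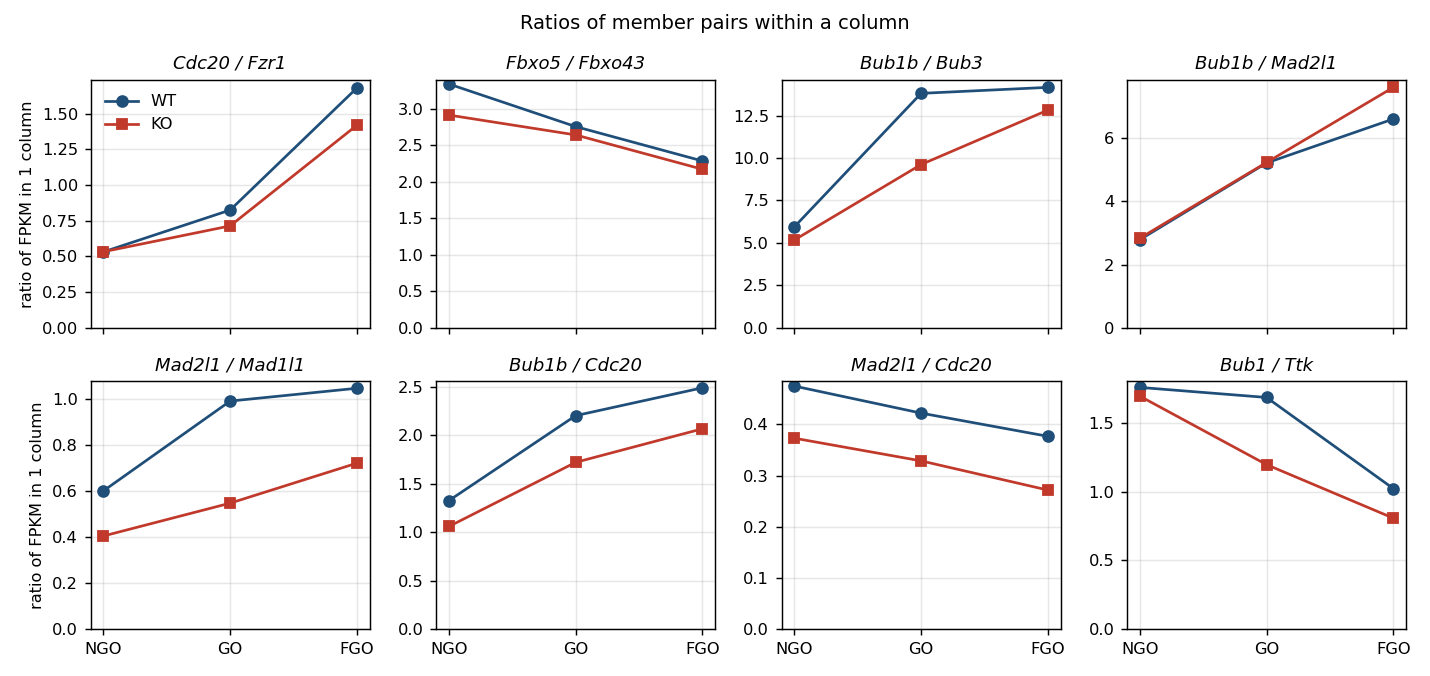
Ratio of the FPKM of 2 members within each column at NGO, GO and FGO, for 8 pairs, with WT in blue circles and KO in red squares (linear axes from 0). Cdc20 / Fzr1 passes 1 at FGO in both genotypes, and Mad2l1 / Mad1l1 is lower in KO at all 3 stages.

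The wider pathway was read from 5 gene lists, whose counts stand beside the all-gene shares given above for KO against WT (called higher 0.0297%, 0.95% and 25.8%, called lower 0.326%, 2.03% and 0.158% at NGO, GO and FGO). The APC/C list held 16 subunits and E2 enzymes, all compared. In KO against WT 0 were called at NGO, and at GO 1 was called higher and 1 lower. The 1 higher gene was Anapc5, a scaffold subunit, at 18.7 FPKM in WT and 42.8 in KO. The 1 lower gene was Ube2s, the E2 enzyme that extends ubiquitin chains, at 426 and 150 FPKM. Ube2s was at 103 and 56.2 FPKM at NGO and at 398 and 519 at FGO, where its direction turned with the scaling: its rescaled differences were -0.69, -1.42 and -0.40 at NGO, GO and FGO. At FGO Anapc5 (19.3 and 59.2) and Cdc16, a subunit of the APC/C arm (17.8 and 40.7), were called higher. The list's rescaled medians were -0.09, -0.15 and -0.26 at NGO, GO and FGO, with 9, 11 and 11 of 16 genes below 0.

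The 10 genes of the KMN network, the kinetochore layer that binds microtubules and recruits the checkpoint, had 0 calls at NGO and GO. At FGO 3 of the 10 were called higher, against 25.8% of all genes, namely Mis12 (24.6 FPKM in WT and 58.6 in KO), Spc24 (26.3 and 61.3) and Nsl1 (1.07 and 3.24). Nuf2, a subunit of the microtubule-binding NDC80 complex, was next, at a log2 difference of 0.89. Of the 9 other checkpoint factors 8 were compared, and Usp44 was under the filter. At NGO and GO 0 were called, and at FGO 1 of the 8 was called higher, Trip13, an ATPase that remodels MAD2, at 5.61 and 13.1 FPKM. Mad2l1bp, its partner in taking the inhibitory complex apart, was at 18.9 and 10.1 FPKM at GO, a log2 difference of -0.84.

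Of the 12 APC/C targets 0 were called at NGO, 1 was called lower at GO and 3 were called higher at FGO. The GO gene was Cdc25a, a phosphatase that activates cyclin-dependent kinases, at 37.2 FPKM in WT and 17.4 in KO. Plk1, a mitotic kinase, was at 41.5 and 83.7 FPKM there, a log2(FPKM + 1) difference of 0.996 that was not called as deposited and was called when rescaled (1.07). At FGO the 3 were Plk1 (59.7 FPKM in WT and 176 in KO), Nek2 (45.4 and 105) and Ccnb1, the cyclin B1 gene (532 and 1076). Pttg1, the securin gene, was the most abundant target, at 432, 1340 and 1916 FPKM in WT and 261, 812 and 2251 in KO. In the cohesion list 4 of 5 genes were compared. Smc1b, the meiotic cohesin gene, was called higher in KO at GO (5.47 and 13.5 FPKM), and Smc1b and Stag3 at FGO. Rec8, the meiotic kleisin gene, was listed at 0 in 5 columns and at 0.0245 FPKM in KO FGO, and such an entry can be a failed estimate. All 5 lists together had 11 of 50 genes called higher and 0 lower at FGO, against 25.8% and 0.158% of all genes, and 2 and 2 at GO, against 0.95% and 2.03%. After rescaling, 0 of the 50 were called at NGO and at FGO, and 3 higher (Anapc5, Plk1 and Smc1b) and 1 lower (Ube2s) at GO. The rescaled shares of all genes in either direction were 0.485% at NGO, 2.32% at GO and 2.62% at FGO. Over growth, 31 of the 50 were called higher from NGO to GO in WT and 33 in KO, against 54.8% and 57.6% of all genes. All 12 APC/C targets were among them in WT and 11 in KO. After rescaling, 1 of the 50 was called higher in WT and 2 in KO, all of them targets, and 1 lower in each. Of all genes 9.34% in WT and 7.96% in KO were called in either direction in that rescaled step. From GO to FGO 2 of the 50 were called higher in WT and 2 lower (Spc24 and Nsl1, each at -1.26), against 6.5% and 9.22% of all genes. In KO 28 were called higher and 0 lower, against 39% and 0.514%, and after rescaling 1 was called higher and 1 lower. The WT counts after rescaling were again 2 and 2. Rescaled shares of all genes in either direction were 14.1% in WT and 10.1% in KO from GO to FGO.

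**Figure D5:**
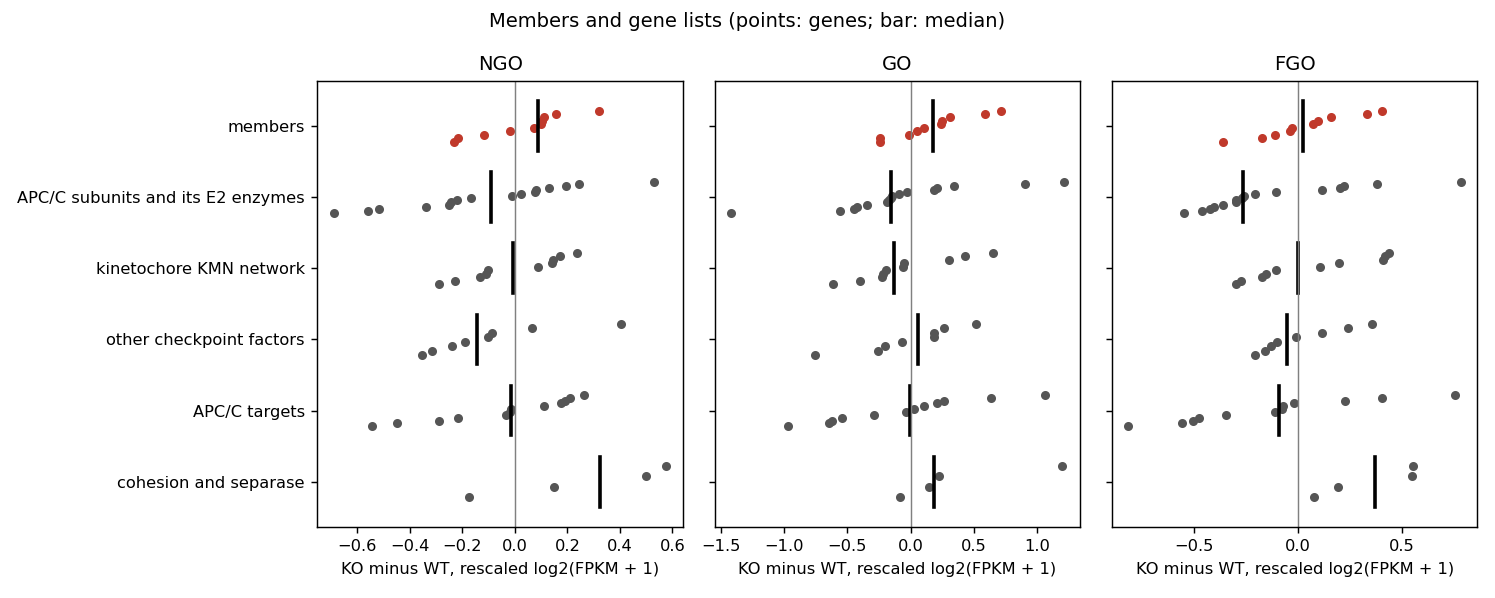
Rescaled KO minus WT difference on log2(FPKM + 1) at NGO, GO and FGO for the 10 members (red) and for the genes of the 5 lists (grey), with a black bar at each median (the axis range differs between stages). The members lie between -0.24 and 0.71 at GO, inside the range of the APC/C list, which runs from -1.42 (Ube2s) to 1.21 (Anapc5).

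Likeness of pattern was measured as the Euclidean distance between rescaled, centred log2(FPKM + 1) profiles over the 6 columns, among 6356 named genes that averaged 5 FPKM or more. The nearest gene was Crlf3 for Bub1 (distance 0.08), Galk2 for Bub1b (0.11), Slc25a17 for Bub3 (0.09), Mycbp for Mad2l1 (0.08) and Dctn5 for Mad1l1 (0.12). It was Zdhhc13 for Ttk (0.11), Ccnc for Cdc20 (0.11), Tubb2b for Fzr1 (0.09), Ergic2 for Fbxo5 (0.06) and Usp53 for Fbxo43 (0.14). Median distances to all those genes were between 0.82 and 1.94. Among the members themselves the closest pair was Cdc20 and Fbxo43, at 0.33, followed by Mad2l1 and Fbxo5, at 0.38. From 76 to 1695 other genes lay nearer to a member than its nearest fellow member did. The members' profiles were thus not each other's closest matches. The fellow members are few beside the 6356 genes, so these counts cannot show whether the members share a pattern. With 6 columns small distances arise for many genes.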

How the data were processed

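Polyadenylated RNA of 10 oocytes per sample was turned into cDNA with Smart-seq2, and libraries were made from 500 pg of cDNA and read as 150 bp pairs, per the labels' protocols. The submitters' processing notes name Trim Galore 0.6.7, HISAT2 2.2.1, Cufflinks 2.2.1 and mm10. The authors deposited FPKM adjusted to the ERCC spike-in, as the table is named. The sources used here give neither the formula nor the annotation.

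Of 25912 lines, 2 with unreadable cells were left out, and for the 333 symbols on several lines the line of largest mean was kept. Differences of log2(FPKM + 1) were taken for the 10110 genes averaging 1 FPKM or more. The design foresaw descriptions without tests for 1 column per group, which the table has. The members, lists and pairs were chosen with earlier results of these data known. Named genes were all members, up to 4 per list and comparison by size of difference, and the nearest profile of each member. Rec8 was named after its values were seen. Alternatives were median-ratio scaling, equal column totals, a pseudocount of 0.1, no filter and a mean of at least 5 FPKM. The steps were run on simulated columns whose changes exceeded 2-fold and whose noise was preset. That run gives no error rate for calls near 2-fold in these data. Coordinates and promoters came from RefSeq on GRCm38.p6, the assembly of mm10. Exon overlaps came from GENCODE M21. In a blastn 2.17.0 search of 18 member transcripts, 0 other genes matched at 95% identity over 50% of a transcript. Software was Python 3.11.15, numpy 2.4.6 and pandas 2.3.3.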

Additional observations from a re-analysis of the deposited data

Results flagged for a closer look

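For some members the deposited KO and WT columns differ in opposite directions at neighbouring stages, or the stage step goes opposite ways in the 2 genotypes. Each value rests on 2 columns, and the difference between stages or genotypes was not tested.

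Between NGO and GO the log2 KO minus WT difference was -0.065 and 0.16 for Bub1, -0.16 and 0.18 for Bub3, -0.014 and 0.64 for Ttk, -0.073 and 0.035 for Cdc20, and -0.077 and 0.24 for Fzr1. Of these 5, 1 had opposite signs after rescaling (Bub3) and 0 with equal column totals. Between GO and FGO it was -0.32 and 0.62 for Bub1b, -0.31 and 0.41 for Mad2l1, -0.087 and 0.68 for Fbxo5, and -0.027 and 0.74 for Fbxo43. Of these 4, 1 had opposite signs after rescaling (Fbxo43) and 0 with equal column totals. The step of Fzr1 from GO to FGO was -0.26 in WT and 0.62 in KO as deposited, and -0.27 and -0.26 after rescaling.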

How the results depend on the processing

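No paired analysis was possible because the table gives 1 column per genotype and stage and no replicate numbers, and for the same reason no replicate could be left out. With median-ratio scaling the number of members called higher was 0 for KO against WT at FGO, 0 for the NGO to GO step in WT and in KO, and 0 for the GO to FGO step in KO. With equal column totals these counts were 0, 1 (Bub1b), 0 and 0. The NGO to GO steps of Mad1l1 and Fzr1 in KO turned to -0.35 and -0.16 with median-ratio scaling and to -0.34 and -0.15 with equal column totals. With a pseudocount of 0.1, 1 of 70 member differences crossed the 2-fold line, Bub3 from NGO to GO in WT (1.09). With no filter and with a mean of at least 5 FPKM, 0 of 70 did so. Median-ratio scaling moved the all-gene median of KO minus WT at FGO from 0.72 to 0.02. Read depth is unknown, so what it limits cannot be given.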
